A study of Homo sapiens with 40 samples.

Results

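DLL4 and 8 other genes of the Notch pathway were followed in 2 human cell lines after loss of regulators of histone gene transcription, and make up 9 of the 22069 genes on the array. DLL4 was chosen by its rise in U2OS cells, which earlier results of these data had shown, so its differences are given below as a description, without p-values. The 8 others are the ligands DLL1, JAG1 and JAG2, the receptors NOTCH1, NOTCH2 and NOTCH3, and the target genes HES1 and HEY1, taken as members of the same pathway with those earlier results known. In the deposited table the 9 genes carry the identifiers ENSG00000128917_at (DLL4), ENSG00000198719_at (DLL1), ENSG00000101384_at (JAG1), ENSG00000184916_at (JAG2), ENSG00000148400_at (NOTCH1), ENSG00000134250_at (NOTCH2), ENSG00000074181_at (NOTCH3), ENSG00000114315_at (HES1) and ENSG00000164683_at (HEY1), and all 9 were measured on all 40 arrays.

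hTERT-RPE1 is a line of normal human retinal pigment epithelial cells immortalized with telomerase, and U2OS is a human osteosarcoma line. Both were reverse transfected at 15 nM, either with a negative control siRNA or with a pool of siRNAs that targets CASP8AP2, NPAT or HINFP. CASP8AP2 and NPAT work together at the replication-dependent histone genes, and HINFP binds histone H4 promoters. The study asked whether normal and tumour cells respond differently to the loss of these factors. RNA was taken on day 1 and day 2 after control or CASP8AP2 siRNA (24 arrays, 3 per group, 8 groups), and on day 3 after control, CASP8AP2, NPAT or HINFP siRNA (16 arrays, 2 per group, 8 groups). Each group is 1 line grown as whole cultures, so more transcript per cell and more cells with the transcript cannot be told apart.

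Levels are log2 values after robust multi-array averaging (RMA), so a difference of 1 is a doubling. Array levels differ between 2 sets, one for days 1 and 2 and one for day 3, which were taken as normalized apart, and every comparison stays within a set. Array means ran from 5.998 to 6.047 on days 1 and 2 and from 5.852 to 5.883 on day 3, and arrays of the same group correlated at 0.9946 to 0.9977 over all genes. The targeted gene was lower with its own siRNA in 10 of 10 comparisons, by 0.76 to 1.73 on the log2 scale (highest adjusted p = 0.00263, limma). For each siRNA and day it fell further in U2OS. On day 2 the CASP8AP2 mean went from 6.99 to 5.26 in U2OS and from 7.56 to 6.80 in hTERT-RPE1. On day 3 NPAT went from 8.62 to 7.04 in U2OS and from 8.36 to 7.05 in hTERT-RPE1. HINFP went from 6.98 to 5.34 and from 7.24 to 6.19. The part of unequal knockdown in the line differences below was not tested. The labelled origins could be checked with few markers. The retinal pigment epithelium genes RLBP1 and BEST1 had control group means between 3.55 and 4.28 in both lines. RUNX2, a transcription factor of the osteoblast lineage, was higher in hTERT-RPE1 (9.57 on day 1) than in U2OS (7.34), and the bone genes IBSP and COL1A2 had control group means between 3.47 and 4.49 in both, so these genes did not separate the lines by their labelled origin.

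Notch signalling passes between touching cells. Ligands of the Delta-like (DLL) and Jagged (JAG) families on one cell bind NOTCH receptors on the next, proteases cut the receptor, and its intracellular part enters the nucleus, where it joins the DNA-binding protein RBPJ and switches on target genes such as HES1 and HEY1, which encode transcriptional repressors. DLL4 is best known from the endothelium of growing vessels. Notch ligand and receptor genes can themselves be targets of the pathway.

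The promoters of 3 members are shown because they stand for a ligand gene chosen by its rise in U2OS cells, a ligand gene that rose in both lines, and a classical target gene that was not called higher in either. Each is the RefSeq sequence (GRCh38.p14) from 250 bases before to 50 bases after the gene's start, written 5' to 3' on the gene's strand, with every copy of TGGGAA, the core letters bound by RBPJ, in capitals.
DLL4 (chr15:40929090-40929389, plus strand): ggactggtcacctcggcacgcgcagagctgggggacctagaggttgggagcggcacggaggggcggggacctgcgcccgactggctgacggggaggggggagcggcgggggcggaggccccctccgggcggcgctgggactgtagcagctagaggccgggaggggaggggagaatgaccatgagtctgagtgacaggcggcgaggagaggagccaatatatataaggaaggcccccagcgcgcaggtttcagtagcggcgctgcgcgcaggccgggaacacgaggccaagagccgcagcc
JAG1 (chr20:10673950-10674249, minus strand): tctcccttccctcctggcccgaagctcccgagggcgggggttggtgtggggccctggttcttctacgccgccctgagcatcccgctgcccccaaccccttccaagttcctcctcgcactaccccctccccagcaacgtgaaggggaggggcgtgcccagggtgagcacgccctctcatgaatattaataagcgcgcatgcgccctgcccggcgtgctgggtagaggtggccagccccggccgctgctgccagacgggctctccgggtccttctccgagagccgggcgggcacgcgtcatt
HES1 (chr3:194135898-194136197, plus strand): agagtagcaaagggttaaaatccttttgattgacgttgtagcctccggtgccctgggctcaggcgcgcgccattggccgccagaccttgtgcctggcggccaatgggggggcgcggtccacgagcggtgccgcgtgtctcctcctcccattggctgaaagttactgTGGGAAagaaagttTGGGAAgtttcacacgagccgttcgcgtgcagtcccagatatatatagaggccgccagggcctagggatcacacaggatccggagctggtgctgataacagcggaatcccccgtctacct
TGGGAA was searched on both strands. HES1 held 2 copies, at bases 167 to 172 and 181 to 186 counted from 1 at the 5' end of the window, and the first also matched the longer form GTGGGAA. Neither form was found in the windows of the other 6 members with an entry (DLL4, JAG1, JAG2, NOTCH1, NOTCH2 and NOTCH3). TGGGAA stood in 24.0% and GTGGGAA in 6.25% of all 35116 promoter windows of this length, so the absence from 6 windows says only that these letters are not there. CACGTG, the palindromic E-box, stood in 0 of the 7 windows and in 7.26% of all windows. The 7 windows held 59.0 to 79.7% G and C, against a median of 58.7% over all promoters.

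DLL4 stayed low in hTERT-RPE1 cells under every siRNA and rose in U2OS cells from day 2. It was a dim gene, with control group means between percentiles 13.1 and 24.7 of all values on their arrays. The U2OS mean stood at percentile 40.7 with CASP8AP2 siRNA on day 2 and at 47.7 to 54.5 with the siRNAs of day 3. Whether DLL4 was expressed at all in the controls was not tested. The filter on dim genes used as an alternative (mean log2 under 5) leaves DLL4 out, and DLL1 too on days 1 and 2. In the U2OS controls of day 2 the 3 arrays read 3.42, 3.64 and 3.65, and after CASP8AP2 siRNA they read 4.97, 5.07 and 4.50. The mean went from 3.57 ± 0.13 to 4.85 ± 0.30 (SD, n = 3), a difference of 1.28 ± 0.12 (SE) or 2.42-fold. The lowest treated array thus lay above the highest of the other 21 arrays of days 1 and 2, which was 3.73. On day 1 the U2OS controls read 3.41, 3.51 and 3.39 and the CASP8AP2 arrays 3.57, 3.50 and 3.73, a difference of 0.17 ± 0.12 with overlapping groups. The U2OS effect was therefore larger on day 2 than on day 1 by 1.11 ± 0.17. Left out one at a time, the arrays gave a day 2 difference between 1.17 and 1.45, with the highest value without CASP8AP2 replicate 3.

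On day 3 all 3 siRNAs were followed by higher DLL4 in U2OS cells. The 2 control arrays read 3.58 and 3.63. After CASP8AP2 siRNA the arrays read 5.31 and 5.50 (difference 1.80 ± 0.19), and after NPAT siRNA 5.13 and 5.14 (1.53 ± 0.19). After HINFP siRNA they read 5.44 and 6.18 (2.20 ± 0.19), the widest spread of a group in the DLL4 data, and the difference was 1.83 without HINFP replicate 2 and 2.57 without HINFP replicate 1. All 6 treated arrays lay above both controls. Ranked by signed difference among the 22069 genes, DLL4 stood at place 46 for CASP8AP2, 24 for NPAT and 22 for HINFP, and these 3 comparisons share the same 2 control arrays. DLL4 was chosen by this rise, so high places were fixed by the choice and are given as a description only.

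No rise of this size was seen in hTERT-RPE1 cells. On day 1 the DLL4 controls read 3.38, 3.03 and 3.28 and the CASP8AP2 arrays 3.42, 3.30 and 3.41 (difference 0.15 ± 0.12). On day 2 the controls read 3.27, 3.48 and 3.50 and the CASP8AP2 arrays 3.38, 3.28 and 3.49 (difference -0.03 ± 0.12, 95% interval -0.28 to 0.22). The groups overlapped on both days. On day 3 the controls read 3.73 and 3.72, CASP8AP2 siRNA gave 3.78 and 3.94, NPAT siRNA 4.03 and 4.09, and HINFP siRNA 3.95 and 3.51. Both CASP8AP2 and both NPAT arrays lay above the controls, by means of 0.14 ± 0.19 and 0.34 ± 0.19 with 95% intervals of -0.27 to 0.55 and -0.07 to 0.75, and the HINFP arrays lay on both sides of them. The effect in U2OS minus the effect in hTERT-RPE1 was 0.02 ± 0.17 on day 1 and 1.31 ± 0.17 on day 2 for CASP8AP2 siRNA. For day 3 it came to 1.66 ± 0.27 for CASP8AP2, 1.19 ± 0.27 for NPAT and 2.20 ± 0.27 for HINFP siRNA.

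Ordered by mean level within the set of days 1 and 2, DLL4 went from hTERT-RPE1 day 1 control (3.23) through hTERT-RPE1 day 1 CASP8AP2 (3.38), day 2 CASP8AP2 (3.39) and day 2 control (3.41) to U2OS day 1 control (3.44), U2OS day 2 control (3.57) and U2OS day 1 CASP8AP2 (3.60). Arrays of neighbouring groups overlapped along this whole stretch, and only the step to U2OS day 2 CASP8AP2 (4.85) left a gap. The order on day 3 was U2OS control (3.61), hTERT-RPE1 control (3.72), HINFP (3.73), CASP8AP2 (3.86) and NPAT (4.06), then U2OS NPAT (5.14), CASP8AP2 (5.41) and HINFP (5.81). U2OS CASP8AP2 and HINFP overlapped, as did hTERT-RPE1 control, HINFP and CASP8AP2 through the wide HINFP pair.

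**Figure D1:**
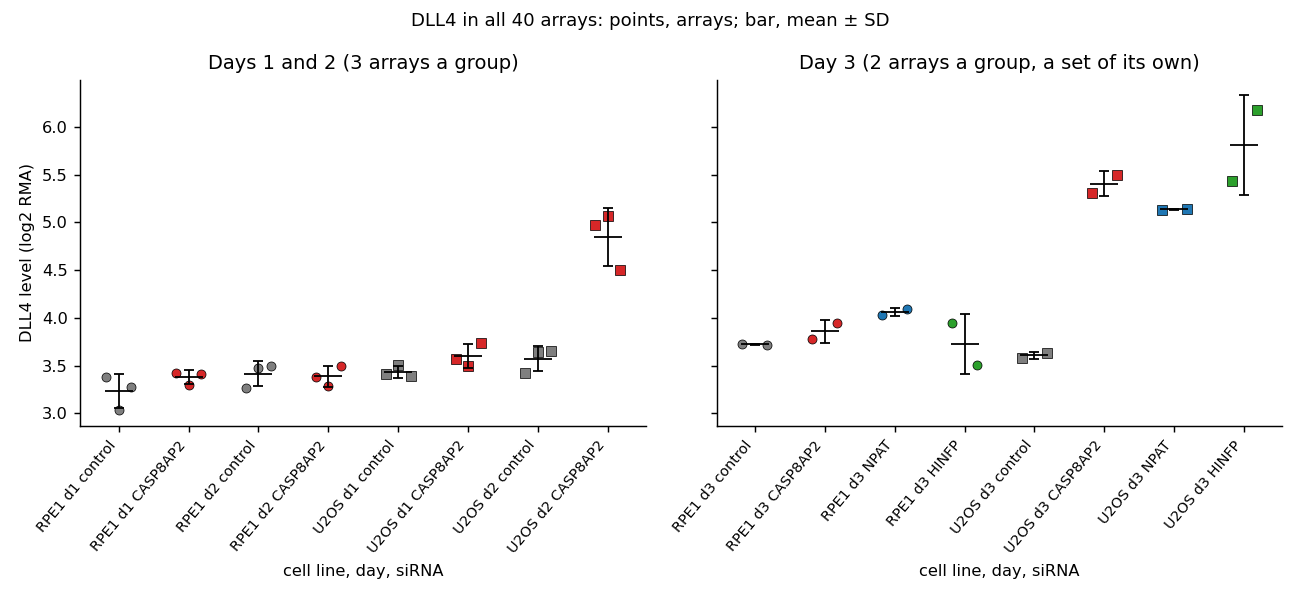
DLL4 level (log2 RMA, vertical axis) in each of the 16 groups of cell line, day and siRNA (horizontal axis), days 1 and 2 on the left and day 3 on the right. Points are arrays (circles hTERT-RPE1, squares U2OS; grey control, red CASP8AP2, blue NPAT, green HINFP) and the bars are mean ± SD; the 9 U2OS arrays of CASP8AP2 day 2 and of the day 3 knockdowns lie at 4.50 or above, and all 31 others at 4.09 or below.

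The ligands DLL1, JAG1 and JAG2, the receptor NOTCH1 and the target gene HEY1 rose in U2OS cells under several siRNAs, and JAG1, NOTCH1 and HEY1 also in hTERT-RPE1 cells, where HES1 fell on day 3. Over the 5 comparisons of an siRNA with its control, 22 of 40 tests of the 8 tested members were called in U2OS (adjusted p under 0.05 in limma, over all 22069 genes), 22 of them higher and 0 lower. In hTERT-RPE1 cells 9 of 40 were called, 7 higher and 2 lower. These tests are not independent, since each gene is counted in every comparison and the 3 day 3 comparisons of a line share its 2 control arrays. The calls over all genes were not split by direction. In U2OS, the called members were 1 of 8 on day 1 (5.87% of all genes were called there), 5 of 8 on day 2 (24.9%), and on day 3 6 of 8 for CASP8AP2 (18.9%), 5 for NPAT (8.13%) and 5 for HINFP siRNA (9.43%). In hTERT-RPE1 they were 0 of 8 on day 1 (0.793% of all genes, with 3 of the 8 at an unadjusted p under 0.05), 2 on day 2 (6.40%), and on day 3 2 for CASP8AP2 (6.15%), 2 for NPAT (5.04%) and 3 for HINFP siRNA (4.15%). The median log2 difference of the 8 tested members was 0.35 in U2OS on day 2 and 0.75, 0.64 and 0.38 on day 3 for CASP8AP2, NPAT and HINFP, with the median of all genes between -0.01 and 0.02. In hTERT-RPE1 it was 0.16 on day 2 and 0.09, 0.14 and 0.04 on day 3, with the median of all genes between -0.03 and -0.02.

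Without DLL4, whose rise in U2OS chose it, the arrays of an siRNA and of its control did not overlap as follows, with the share of all genes in brackets. In U2OS every siRNA array lay above every control array for 2 of the 8 tested members on day 1 (11.9%), 6 on day 2 (17.7%), and on day 3 for 6 with CASP8AP2 (30.0%), 7 with NPAT (25.9%) and 6 with HINFP siRNA (24.5%). Members that lay wholly below the controls there were 1 on day 1 (HES1, 10.7%), 0 on day 2 (20.9%) and 0 with each siRNA of day 3 (28.1%, 27.8% and 28.1%). In hTERT-RPE1 members lay wholly above the controls in 4 of 8 cases on day 1 (8.02%), 4 on day 2 (9.97%), and on day 3 in 4 with CASP8AP2 (19.2%), 5 with NPAT (19.5%) and 2 with HINFP siRNA (20.2%). Wholly below were 0 on day 1 (8.16%), 1 on day 2 (DLL1, 10.5%), and on day 3 1 with CASP8AP2 (HES1, 27.4%), 3 with NPAT (DLL1, JAG2 and HES1, 27.9%) and 1 with HINFP siRNA (HES1, 26.0%). With so few arrays, groups part often, as the shares over all genes show.

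**Figure D2:**
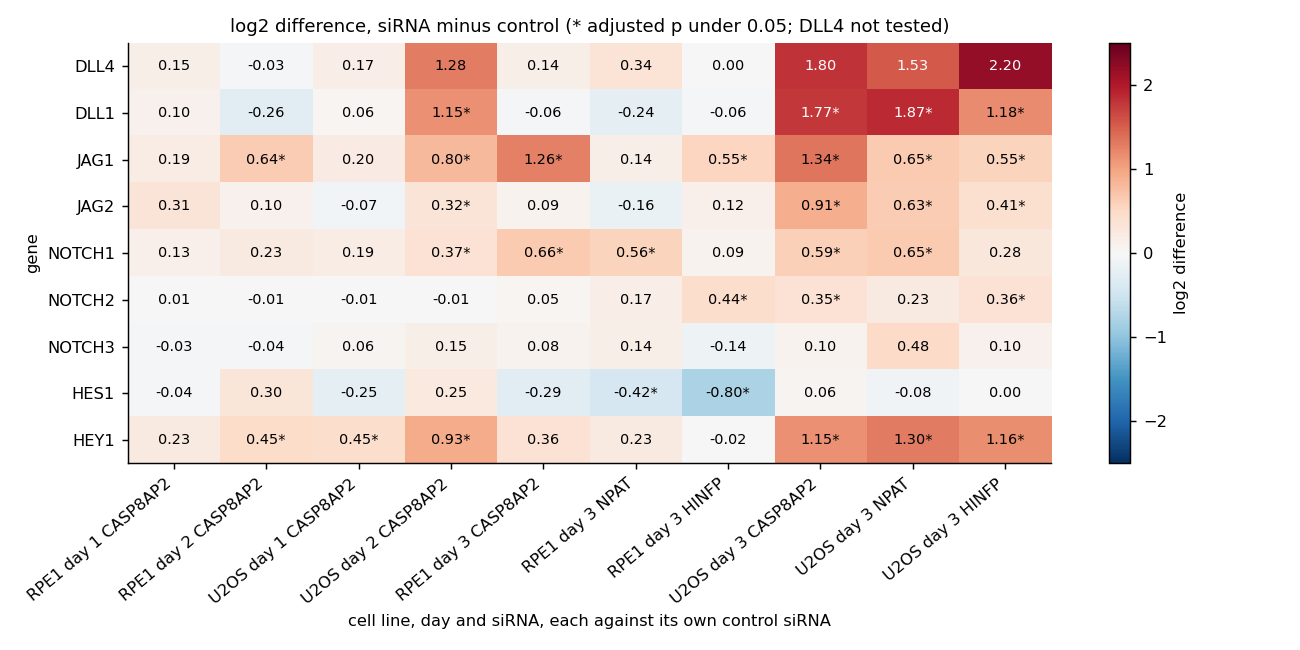
log2 difference of each gene (vertical axis) between an siRNA and its control in the 10 comparisons (horizontal axis), red for higher and blue for lower. Asterisks mark adjusted p under 0.05, which was not computed for DLL4. The right-hand U2OS columns are red for the ligands and HEY1, JAG1 is red in both lines, and HES1 is blue with NPAT and HINFP siRNA in hTERT-RPE1 (-0.42 and -0.80).

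DLL1, a second Delta-like ligand, rose in U2OS from day 2 and not in hTERT-RPE1. In U2OS on day 2 the controls read 4.62, 4.53 and 4.50 and the CASP8AP2 arrays 5.78, 5.74 and 5.58, a rise of 1.15 ± 0.11 (2.21-fold, adjusted p = 9.8e-08). By day 3 the controls read 4.53 and 4.34, CASP8AP2 siRNA gave 6.03 and 6.39 (1.77 ± 0.13, adjusted p = 3.09e-06) and NPAT siRNA 6.24 and 6.38 (1.87 ± 0.13, adjusted p = 5.65e-06). HINFP siRNA gave 5.48 and 5.75 (1.18 ± 0.13, adjusted p = 0.000155). All treated arrays lay above all controls in these 4 comparisons. With NPAT siRNA, DLL1 stood at place 10 of 22069 genes by signed difference. On day 1 the U2OS groups overlapped (0.06, adjusted p = 0.876), and the effect grew by 1.09 ± 0.16 to day 2 (adjusted p = 0.000141). The filter on dim genes leaves DLL1 out on days 1 and 2, so its results there were not checked with it.

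In hTERT-RPE1 cells DLL1 was not called in any of the 5 comparisons, with differences from -0.26 to 0.10. Its arrays there ran from 4.46 to 5.03 on days 1 and 2 and from 4.46 to 4.80 on day 3, and they lay below all controls with CASP8AP2 siRNA on day 2 (-0.26, adjusted p = 0.204) and with NPAT siRNA (-0.24, adjusted p = 0.347). The difference between the lines was called for DLL1 with CASP8AP2 siRNA on day 2 and with each siRNA on day 3. It was 1.41 ± 0.16 for CASP8AP2 on day 2 (adjusted p = 4.21e-06), and 1.83 ± 0.19 for CASP8AP2 (adjusted p = 0.000113), 2.11 ± 0.19 for NPAT (adjusted p = 0.000119) and 1.24 ± 0.19 for HINFP siRNA (adjusted p = 0.00355) on day 3.

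JAG1, a Jagged ligand, rose in both lines. In hTERT-RPE1 on day 2 the controls read 7.58, 7.48 and 7.64 and the CASP8AP2 arrays 8.24, 8.08 and 8.28 (0.64 ± 0.07, adjusted p = 2.99e-06). In U2OS on day 2 the controls read 7.85, 7.95 and 7.77 and the CASP8AP2 arrays 8.73, 8.62 and 8.64 (0.80 ± 0.07, adjusted p = 2.12e-08). In neither line did the day 2 groups overlap. On day 3 CASP8AP2 siRNA gave 8.72 and 8.94 against 7.50 and 7.62 in hTERT-RPE1 (1.26 ± 0.12, adjusted p = 3.08e-05) and 8.89 and 8.81 against 7.55 and 7.48 in U2OS (1.34 ± 0.12, adjusted p = 1.92e-05). These day 3 rises differed by 0.07 with a 95% interval of -0.30 to 0.44, and no line difference of JAG1 was called under any siRNA or day in the fit of each set. For NPAT siRNA it was 0.51 (adjusted p = 0.121), which was called when all 40 arrays were fitted together (0.0189), and the adjusted p ran from 0.0189 to 0.338 over all alternatives.

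NPAT and HINFP siRNA moved JAG1 less than CASP8AP2 siRNA did. In U2OS on day 3 JAG1 read 8.08 and 8.25 with NPAT siRNA (0.65, adjusted p = 0.00629) and 8.03 and 8.09 with HINFP siRNA (0.55, adjusted p = 0.0122). In hTERT-RPE1 it read 7.63 and 7.77 with NPAT siRNA (0.14, adjusted p = 0.594) and 8.29 and 7.93 with HINFP siRNA (0.55, adjusted p = 0.0271). Set directly against CASP8AP2 siRNA, JAG1 was lower by 1.13 (NPAT, adjusted p = 0.000293) and by 0.72 (HINFP, adjusted p = 0.00486) in hTERT-RPE1. In U2OS it was lower by 0.69 (adjusted p = 0.00846) and 0.79 (adjusted p = 0.0027). The U2OS call with NPAT siRNA was lost without NPAT replicate 2, the U2OS call with HINFP siRNA without control replicate 1 or 2 or HINFP replicate 2, and the hTERT-RPE1 call with HINFP siRNA without control replicate 1 or 2 or HINFP replicate 1, with adjusted p up to 0.0716, 0.0931 and 0.225 over all alternatives (lowest 3.06e-05, 0.000199 and 0.000527). Among the direct differences, 2 were also lost with an array left out: HINFP against CASP8AP2 in hTERT-RPE1 without CASP8AP2 replicate 2 or HINFP replicate 2 (adjusted p 9.79e-06 to 0.0879 over all alternatives), and NPAT against CASP8AP2 in U2OS without CASP8AP2 replicate 1 or NPAT replicate 1 (2.75e-05 to 0.0882).

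JAG2, the other Jagged ligand, rose in U2OS by less than 1 on the log2 scale. In U2OS on day 3 the controls read 4.91 and 5.09, CASP8AP2 siRNA gave 5.78 and 6.03 (0.91 ± 0.12, adjusted p = 0.000245), NPAT siRNA 5.61 and 5.64 (0.63, adjusted p = 0.00665) and HINFP siRNA 5.28 and 5.53 (0.41, adjusted p = 0.0468). On day 2 the U2OS controls read 5.68, 5.44 and 5.58 and the CASP8AP2 arrays 5.95, 5.95 and 5.77 (0.32, adjusted p = 0.0155). The groups did not overlap in these 4 comparisons. In hTERT-RPE1 JAG2 was not called, with differences from -0.16 to 0.31, and the lines differed by 0.82 for CASP8AP2 (adjusted p = 0.00962) and 0.78 for NPAT siRNA (adjusted p = 0.0251) on day 3. The HINFP call ended under 4 other settings and without control replicate 1 or 2 or HINFP replicate 2 (adjusted p 0.0167 to 0.349 over all alternatives). The U2OS calls on day 2 (without control replicate 2 or CASP8AP2 replicate 1 or 2, up to 0.0918 from 0.00588) and for NPAT siRNA (without control replicate 1 or NPAT replicate 2, up to 0.0817 from 0.00042) also rested on single arrays, as did the NPAT line difference, which was lost without any 1 of 6 of its 8 arrays and with cyclic loess (0.00291 to 0.109).

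**Figure D3:**
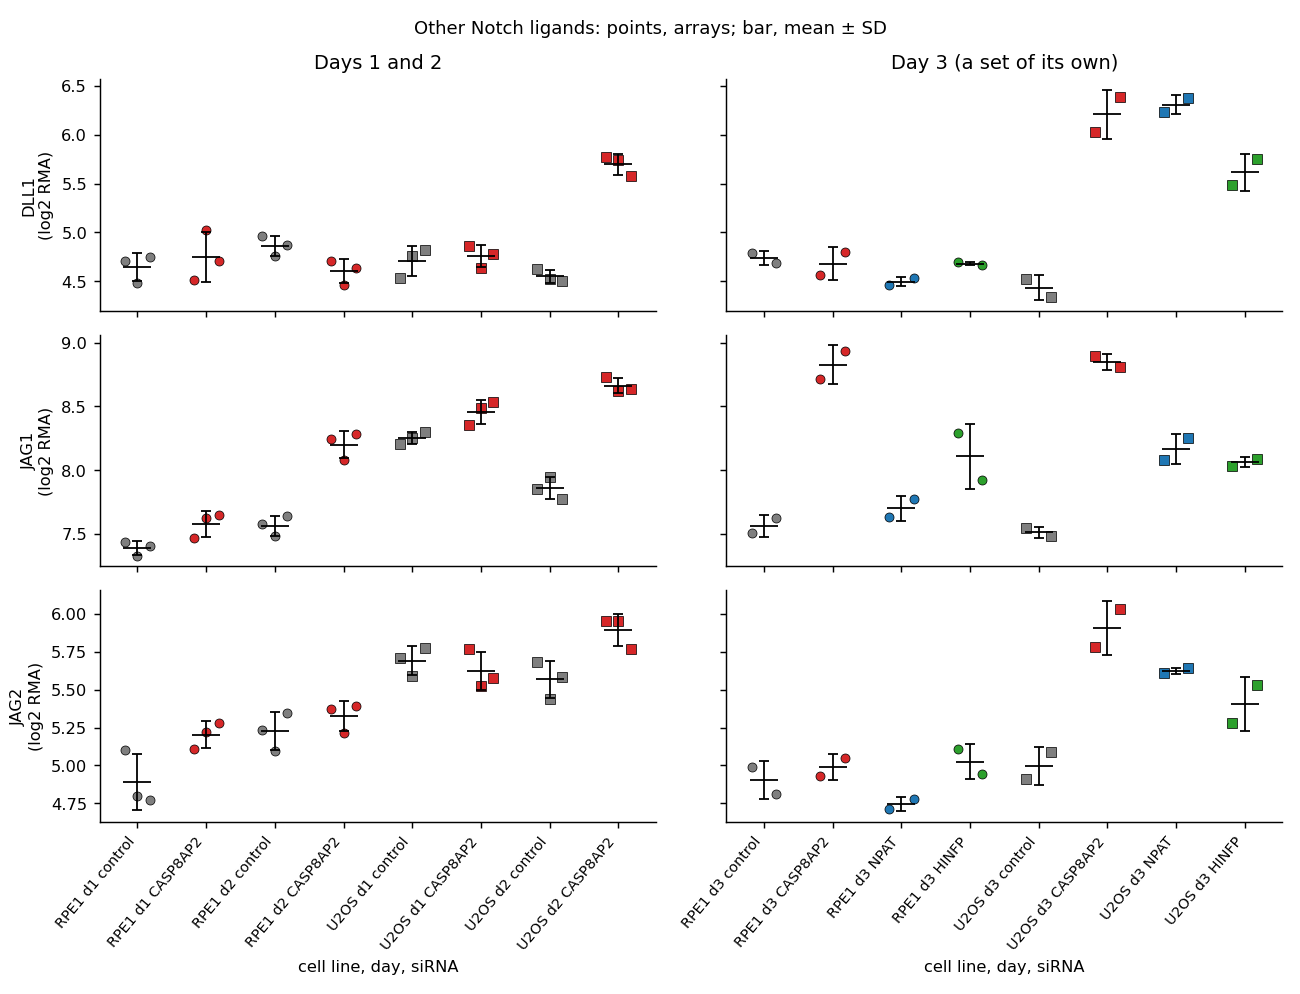
Levels of DLL1, JAG1 and JAG2 (log2 RMA, vertical axes) by cell line, day and siRNA (horizontal axis), days 1 and 2 on the left and day 3 on the right; points are arrays (circles hTERT-RPE1, squares U2OS; grey control, red CASP8AP2, blue NPAT, green HINFP) and bars are mean ± SD. The DLL1 arrays at 5.48 or above are all U2OS knockdowns of day 2 or 3, while JAG1 after CASP8AP2 siRNA reaches 8.83 in hTERT-RPE1 and 8.85 in U2OS on day 3.

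Among the receptors, NOTCH1 rose in both lines, by less than 0.7 in every comparison. In U2OS on day 2 the controls read 8.17, 8.01 and 8.01 and the CASP8AP2 arrays 8.41, 8.42 and 8.47 (0.37 ± 0.07, adjusted p = 0.00063). On day 3 the U2OS controls read 7.36 and 7.35, CASP8AP2 siRNA gave 7.97 and 7.93 (0.59, adjusted p = 0.00234) and NPAT siRNA 7.84 and 8.16 (0.65, adjusted p = 0.00346). In hTERT-RPE1 the day 3 controls read 6.81 and 7.04, CASP8AP2 siRNA gave 7.54 and 7.63 (0.66, adjusted p = 0.00293) and NPAT siRNA 7.48 and 7.49 (0.56, adjusted p = 0.0116). These groups did not overlap in either line. HINFP siRNA gave 0.28 in U2OS (adjusted p = 0.143) and 0.09 in hTERT-RPE1 (adjusted p = 0.716). The line differences of NOTCH1 were not called, with values from -0.06 to 0.18. The hTERT-RPE1 call with NPAT siRNA was lost without control replicate 1 or NPAT replicate 1 or 2 (adjusted p 0.000195 to 0.1 over all alternatives), and the one with CASP8AP2 siRNA when only those groups were fitted (0.0625).

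NOTCH2 parted the lines and moved little with the siRNAs. Its controls read 11.05 to 11.33 in hTERT-RPE1 and 10.52 to 10.69 in U2OS on days 1 and 2, without overlap. With CASP8AP2 siRNA on days 1 and 2 it stayed within 0.01 of the control mean in both lines. On day 3 it was called in 3 comparisons, at 0.35 for CASP8AP2 (10.38 and 10.24 against 9.93 and 9.99, adjusted p = 0.029) and 0.36 for HINFP (10.22 and 10.42, adjusted p = 0.0422) in U2OS, and at 0.44 for HINFP in hTERT-RPE1 (11.17 and 11.20 against 10.62 and 10.88, adjusted p = 0.0335). The U2OS calls were lost without either control array, and without CASP8AP2 replicate 1 or HINFP replicate 2 in turn, and the hTERT-RPE1 call without control replicate 1 or either HINFP array. With arrays centred on their median the U2OS calls were lost too (adjusted p = 0.0539 for CASP8AP2 and 0.0532 for HINFP siRNA), the HINFP one also with the replicate block (0.0516), and fitting only the groups compared ended all 3. Over all alternatives the adjusted p ran from 0.00272 to 0.205, from 0.00372 to 0.317 and from 0.00125 to 0.201. NOTCH2 shares long stretches of sequence with its partial copies, the NOTCH2NL genes, so its value may include their transcripts.

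NOTCH3 was not called against control in any of the 10 comparisons. Its largest difference was 0.48 with NPAT siRNA in U2OS on day 3 (6.58 and 7.03 against 6.18 and 6.47, adjusted p = 0.052), which was 0.26 without NPAT replicate 2 and 0.71 without NPAT replicate 1. It passed the threshold in 3 alternatives (adjusted p 0.00814 to 0.399 over all of them). The other 9 differences lay between -0.14 and 0.15. NOTCH3 was higher in U2OS than in hTERT-RPE1 controls on all 3 days, by 1.22, 1.25 and 0.88.

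The 2 target genes went different ways. HEY1 rose in U2OS at every time. On day 1 the controls read 5.65, 5.26 and 5.20 and the CASP8AP2 arrays 5.81, 5.69 and 5.96 (0.45 ± 0.11, adjusted p = 0.0165). On day 2 the controls read 5.83, 5.53 and 5.63 and the CASP8AP2 arrays 6.63, 6.74 and 6.40 (0.93 ± 0.11, adjusted p = 1.76e-06). HEY1 was the only tested member called on day 1 in either line. The U2OS controls of day 3 read 5.59 and 5.49, and the treated arrays 6.62 and 6.75 for CASP8AP2 (1.15 ± 0.14, adjusted p = 0.000208), 6.79 and 6.89 for NPAT (1.30 ± 0.14, adjusted p = 0.000185) and 6.60 and 6.81 for HINFP siRNA (1.16 ± 0.14, adjusted p = 0.000309). No treated array overlapped the controls on any of the 3 days.

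In hTERT-RPE1 HEY1 was called on day 2 (4.64, 4.86 and 4.78 against 4.40, 4.29 and 4.24, a rise of 0.45, adjusted p = 0.0151) and not on day 3, where the differences were 0.36 for CASP8AP2, 0.23 for NPAT and -0.02 for HINFP siRNA. The lines differed on day 3 by 0.79 (CASP8AP2, adjusted p = 0.0294), 1.07 (NPAT, adjusted p = 0.017) and 1.18 (HINFP, adjusted p = 0.00834). The U2OS call of day 1 was lost without control replicate 2 or 3 or CASP8AP2 replicate 3 (adjusted p 0.00182 to 0.126 over all alternatives), and the hTERT-RPE1 call of day 2 without control replicate 3 or CASP8AP2 replicate 2 or 3 (0.00848 to 0.0717). The CASP8AP2 line difference was lost without any 1 of 7 of its 8 arrays and with cyclic loess (0.00692 to 0.0945). The NPAT line difference was lost without hTERT-RPE1 NPAT replicate 1, U2OS control replicate 1 or 2, or U2OS NPAT replicate 2 (0.000902 to 0.0812).

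HES1, whose promoter window held both RBPJ cores, was not called in U2OS. On day 3 its arrays read 8.60 and 8.70 with control, 8.68 and 8.74 with CASP8AP2, 8.52 and 8.61 with NPAT and 8.71 and 8.59 with HINFP siRNA. Each treated group overlapped the controls, and the 95% intervals of the 3 differences stayed between -0.29 and 0.27. In hTERT-RPE1 HES1 fell, from 9.57 and 9.45 in the controls to 9.11 and 9.08 with NPAT siRNA (-0.42 ± 0.10, adjusted p = 0.0264) and to 8.82 and 8.60 with HINFP siRNA (-0.80 ± 0.10, adjusted p = 0.000868). CASP8AP2 siRNA gave 9.16 and 9.27 there (-0.29, adjusted p = 0.0998). The HINFP arrays lay below those of the other 3 siRNAs, and the line difference was called for HINFP (0.80, adjusted p = 0.00757). The NPAT call was lost without control replicate 1 or NPAT replicate 1 or 2 (adjusted p 0.0124 to 0.14 over all alternatives), and the HINFP call when only those groups were fitted (0.076).

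On days 1 and 2 HES1 with CASP8AP2 siRNA was not called against control. In hTERT-RPE1 the day 1 groups overlapped (-0.04, adjusted p = 0.958). Day 2 gave 0.30 (adjusted p = 0.11), where the CASP8AP2 arrays read 7.07, 6.90 and 7.08, all above the controls at 6.80, 6.85 and 6.53. The differences were -0.25 on day 1 (7.37, 7.35 and 7.26 against 7.66, 7.55 and 7.51, adjusted p = 0.206) and 0.25 on day 2 (7.66, 7.41 and 7.55 against 7.27, 7.22 and 7.38, adjusted p = 0.0926) in U2OS. The U2OS difference of day 2 was called with cyclic loess (0.31, adjusted p = 0.0357, with a range of 0.0357 to 0.297 over all alternatives). The day 2 effect exceeded that of day 1 by 0.50 (adjusted p = 0.0466), a call lost without any 1 of 11 of its 12 arrays, with arrays centred on their median (0.0574) and with the replicate number as a block (0.0772), and the adjusted p ran from 0.0178 to 0.117 over all alternatives. HES1 values lay between 6.53 and 7.66 in the set of days 1 and 2 and between 8.52 and 9.57 in that of day 3, and the sets were not compared.

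**Figure D4:**
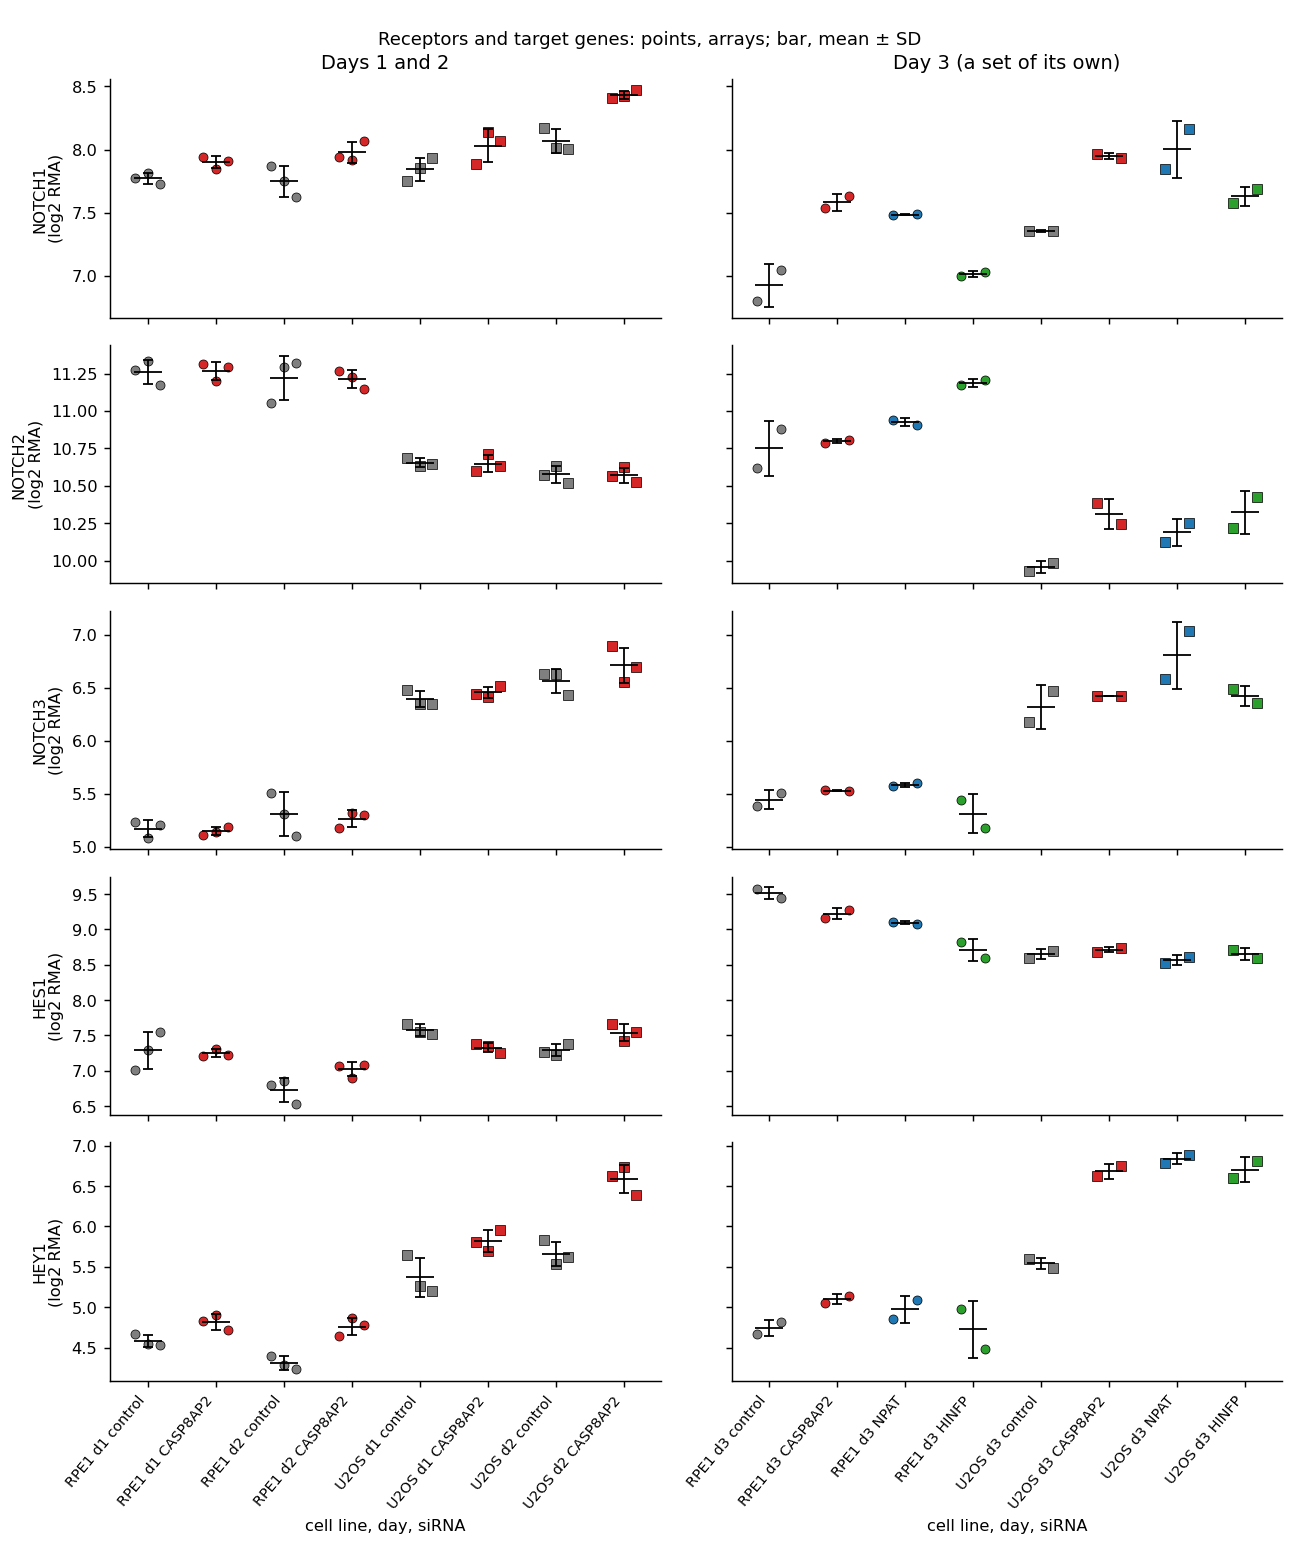
Levels of NOTCH1, NOTCH2, NOTCH3, HES1 and HEY1 (log2 RMA, vertical axes) by cell line, day and siRNA (horizontal axis), days 1 and 2 on the left and day 3 on the right; points are arrays (circles hTERT-RPE1, squares U2OS; grey control, red CASP8AP2, blue NPAT, green HINFP) and bars are mean ± SD. HEY1 separates the U2OS knockdowns (6.60 to 6.89) from their controls (5.49 and 5.59) on day 3, HES1 falls to 8.71 with HINFP siRNA in hTERT-RPE1, and NOTCH2 and NOTCH3 part by line.

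Tested directly as the effect in U2OS minus the effect in hTERT-RPE1, 0 of 8 members were called on day 1 (0.689% of all genes; 1 of the 8 had an unadjusted p under 0.05) and 1 on day 2 (DLL1, 9.39%). The called members of day 3 were DLL1, JAG2 and HEY1 for CASP8AP2 (3 of 8, 9.55% of all genes) and for NPAT siRNA (3 of 8, 3.46%), and DLL1, HES1 and HEY1 for HINFP siRNA (3 of 8, 3.15%). All were positive. JAG1 and the NOTCH receptors were called in none of these 5 comparisons, apart from JAG1 with NPAT siRNA in the fit of all 40 arrays. Between days 2 and 1, the CASP8AP2 effect grew for 3 of 8 members in U2OS (DLL1 by 1.09, JAG1 by 0.60 and HES1 by 0.50, with 7.04% of all genes called) and for 1 in hTERT-RPE1 (JAG1 by 0.45, adjusted p = 0.0392, 0.652%). The hTERT-RPE1 call was lost without any 1 of 9 of its 12 arrays (adjusted p 0.0156 to 0.166 over all alternatives).

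**Figure D5:**
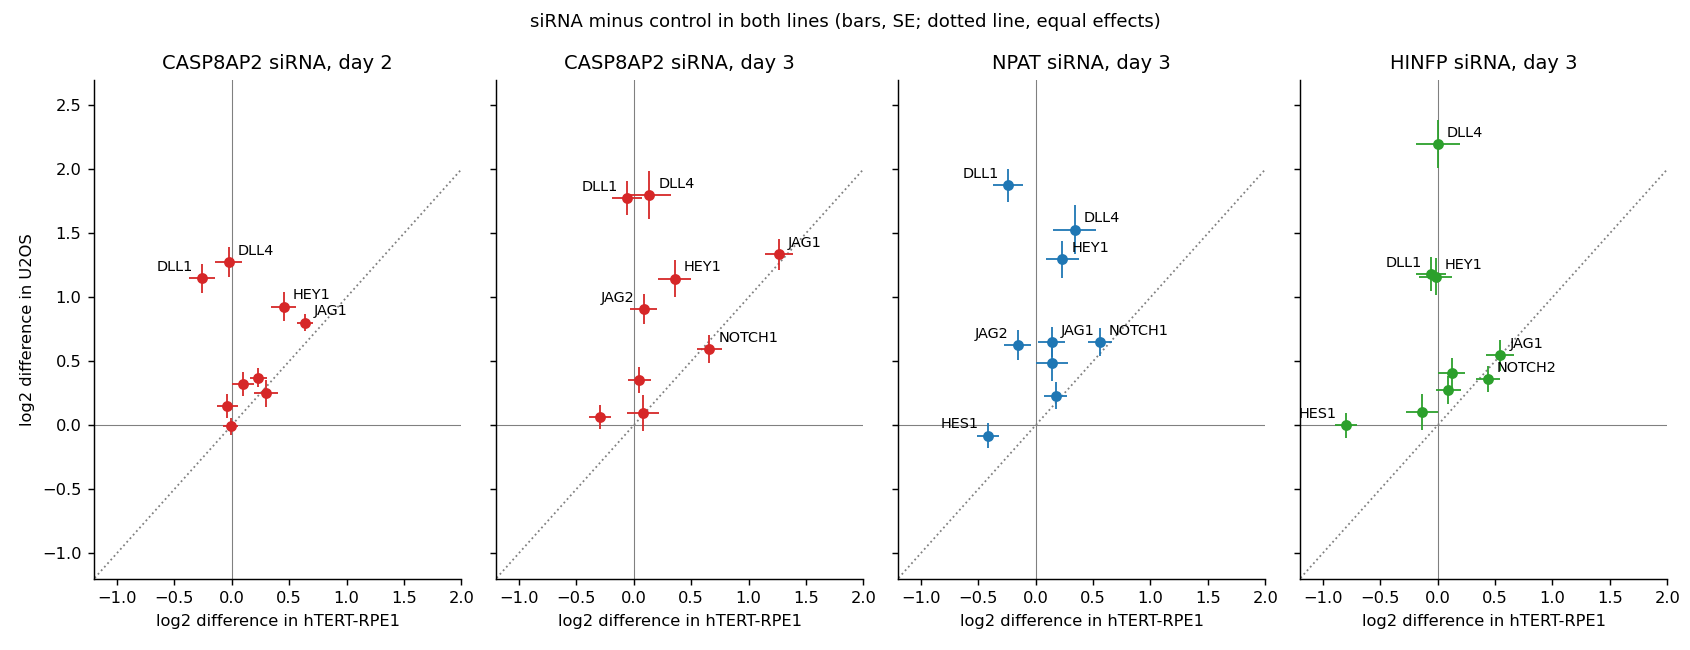
log2 difference between siRNA and control in hTERT-RPE1 (horizontal axis) and in U2OS (vertical axis) for the 9 genes under 4 knockdowns, with SE bars and a dotted line of equal effects; unlabelled points are members with small differences in both lines. DLL4, DLL1 and HEY1 stand above the line in every panel, and JAG1 lies near it with CASP8AP2 siRNA on day 3 (1.26 and 1.34).

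Within a line, NPAT or HINFP siRNA set against CASP8AP2 siRNA on day 3 left no tested member called higher and several called lower. NOTCH2 in hTERT-RPE1 read 11.17 and 11.20 with HINFP siRNA against 10.79 and 10.81 with CASP8AP2 siRNA. This rise was not called in the fit of day 3 alone. All 40 arrays in one fit called it (0.39, adjusted p = 0.00386, limma). So did centring on the array median (adjusted p = 0.0426), the trend and robust setting (0.0195) and the filter on dim genes (0.0352). In U2OS, HINFP siRNA gave lower DLL1 (-0.59, adjusted p = 0.0211), JAG1 (-0.79) and JAG2 (-0.50, adjusted p = 0.0267) than CASP8AP2 siRNA (3 of 8 called, 5.60% of all genes). NPAT siRNA gave lower JAG1 only (1 of 8, 3.50%). In hTERT-RPE1, HINFP siRNA gave lower JAG1 (-0.72), NOTCH1 (-0.57, adjusted p = 0.0104) and HES1 (-0.51, adjusted p = 0.00947; 3 of 8, 3.81%), and NPAT siRNA lower JAG1 (1 of 8, 2.38%). DLL4 with HINFP siRNA in U2OS was 0.40 ± 0.19 above DLL4 with CASP8AP2 siRNA, with overlapping arrays, and 0.03 above it without HINFP replicate 2 and 0.77 without HINFP replicate 1. The U2OS calls of DLL1 and JAG2 were lost without CASP8AP2 replicate 2 or HINFP replicate 1 (adjusted p 0.00415 to 0.176 and 0.00448 to 0.183 over all alternatives). In hTERT-RPE1 the NOTCH1 call was lost without CASP8AP2 replicate 2 or HINFP replicate 1 or 2 (0.000171 to 0.0976), and the HES1 call without CASP8AP2 replicate 2 or HINFP replicate 2 (0.00346 to 0.109).

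With control siRNA alone, 19 of 24 tests of U2OS against hTERT-RPE1 were called for the 8 tested members over the 3 days. These were 6 of 8 on day 1 (48.7% of all genes), 8 on day 2 (50.8%) and 5 on day 3 (43.8%), so the share among all genes was large as well. NOTCH3 and HEY1 were higher in U2OS on all 3 days (HEY1 by 0.79, 1.35 and 0.80), and NOTCH2 was lower (by 0.60, 0.64 and 0.79). HES1 was higher in U2OS on days 1 and 2 (0.29, adjusted p = 0.0268, then 0.57, adjusted p = 8.67e-05) and lower on day 3 (-0.86, adjusted p = 5.71e-06). The day 1 call of HES1 was lost without hTERT-RPE1 control replicate 1 or 2 or U2OS control replicate 1 (adjusted p 0.00155 to 0.233 over all alternatives). It was also lost with arrays centred on their median (0.16, adjusted p = 0.193, limma) and with only the groups compared in the fit (adjusted p = 0.097). DLL4 differed little between the control lines, by 0.20 and 0.16 on days 1 and 2 and by -0.11 on day 3. The day 2 difference of DLL4 was 0.002 with arrays centred on their median. Between the controls of day 1 and day 2, 2 of 8 members were called in hTERT-RPE1 (JAG2 higher by 0.34 and HES1 lower, at -0.56, 10.0% of all genes) and 1 in U2OS (JAG1 lower, at -0.39, 13.0%). The JAG2 call was lost without hTERT-RPE1 day 1 control replicate 2 or 3 or day 2 control replicate 1 or 3 (adjusted p 0.0062 to 0.154).

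Of a list of 51 further Notch pathway genes, 9 could be paired with an identifier on the array, and their called share in each comparison stood beside that of all genes. In U2OS 3 of the 9 were called on day 2 (against 24.9% of all genes), and on day 3 3 with CASP8AP2 (18.9%), 1 with NPAT (8.13%) and 1 with HINFP siRNA (9.43%), with 0 on day 1 (5.87%, and 0 at an unadjusted p under 0.05). These are 8 of 45 tests, 3 higher and 5 lower. In hTERT-RPE1 1 of 45 was called (with HINFP siRNA, 4.15%), and 0 of 9 in each of the other comparisons, where 1 to 3 had an unadjusted p under 0.05. Gamma-secretase frees the intracellular part of the receptor, and its subunit PSENEN was lower in U2OS with CASP8AP2 siRNA on day 2 (-0.49, adjusted p = 0.00479) and again by day 3 (-0.58, adjusted p = 0.0476). The day 3 arrays of PSENEN read 6.94 and 7.40 against 7.42 and 8.07 in the controls. MAML2, a co-activator that binds the RBPJ complex, was lower on day 3 with CASP8AP2 (-0.65, adjusted p = 0.00416) and HINFP siRNA (-0.48, adjusted p = 0.0359). HES5, a target gene related to HES1, was lower on day 2 (-0.25, adjusted p = 0.0417). The 3 rises in U2OS were ADAM17, a receptor-cleaving protease, on day 2 (0.18, adjusted p = 0.0356), the acetyltransferase EP300 on day 3 with CASP8AP2 siRNA (0.33, adjusted p = 0.0278), and the ligand-directed ubiquitin ligase NEURL on day 3 with NPAT siRNA (0.64, adjusted p = 0.0214). In hTERT-RPE1 ADAM17 was higher with HINFP siRNA (0.40, adjusted p = 0.0457). DTX1, FURIN and DLK1 were not called in any of the 10 comparisons, with differences between -0.44 and 0.36. The calls of these 9 genes were not checked under the alternatives.

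Because DLL4 is best known from endothelium, 7 endothelial markers were listed, of which VWF, ESAM and CDH5 could be paired. In U2OS with CASP8AP2 siRNA, VWF rose on day 2 (4.57, 4.52 and 4.36 against 3.71, 3.80 and 3.81, a difference of 0.71, adjusted p = 1.45e-07). The day 3 arrays read 4.36 and 4.04 against 3.40 and 3.53 (0.73, adjusted p = 0.00207). CDH5 rose on day 2 (0.35, adjusted p = 0.00747). Both were dim genes. On day 2 in U2OS the VWF mean went from percentile 24.8 to 35.7 of all values on its arrays, and CDH5 from 30 to 34.9. Whether they were expressed at all was not tested. ESAM was not called in any comparison. The log2 of their summed level ran from 5.40 to 5.64 in the U2OS controls of day 2 and from 5.81 to 6.03 with CASP8AP2 siRNA. On day 3 it ran from 5.49 to 5.53 in the U2OS controls and from 5.61 to 5.87 over the 6 treated arrays. In hTERT-RPE1 the day 3 controls ran from 5.48 to 5.59. There CASP8AP2 siRNA gave 5.62 to 5.69 and HINFP siRNA 5.67 to 5.71, both above the controls. NPAT siRNA gave 5.55 to 5.65, which overlapped them. The hTERT-RPE1 groups of day 2 overlapped too, at 5.46 to 5.49 with control and 5.48 to 5.82 with CASP8AP2 siRNA. The part of these genes in the DLL4 result was not tested.

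Likeness to DLL4 was measured as Pearson's r over the 16 group means, each set of arrays centred on its own mean, among the 1924 genes that could be paired with a symbol. The groups share control samples and normalization, so r is given as a description. ANGPT2, which encodes a ligand of the endothelial receptor TIE2, had the highest value (r = 0.942), and KREMEN2 (0.903), BDH1 (0.902) and TGFA (0.894) were among the next. ANGPT2 went from a mean of 3.67 to 5.79 in U2OS with CASP8AP2 siRNA on day 2, and on day 3 from 3.68 to 5.21 (CASP8AP2), 4.42 (NPAT) and 5.50 (HINFP). Among the members, r to DLL4 was 0.886 for DLL1, 0.873 for HEY1, 0.788 for NOTCH1, 0.783 for JAG2, 0.644 for NOTCH3 and 0.492 for JAG1, and it was negative for HES1 (-0.214) and NOTCH2 (-0.489).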

How the data were processed

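RNA from 40 cultures was hybridised by the authors to Affymetrix Human WT 1.1 arrays. The deposited table holds log2 values per gene after RMA, summarised with a custom set of probes per Ensembl gene. The version of that set and the genome build are not given in the sources used here. Array means differ between days 1 and 2 (24 arrays) and day 3 (16 arrays), so these were taken as sets normalized apart and each was fitted alone. Groups came from the sample labels, which call the replicates biological. The array methods describe duplicate cultures transfected side by side and collected on day 3, and do not describe the triplicates of days 1 and 2. The p-values rest on the spread between cultures within groups, pooled for each gene over all groups of a set. For day 3 they do not measure variation between experiments done on different days. The number of arrays limits the precision, with a median SE of a log2 difference of 0.0874 on days 1 and 2 and 0.114 on day 3.

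limma 3.58.1 in R 4.3.3 fitted a mean per group (16 and 8 residual degrees of freedom), and 26 comparisons were tested with moderated statistics, two-sided, with Benjamini-Hochberg adjustment over all 22069 genes and a threshold of 0.05. No filter on low values was applied, and each of the 9 members was kept. The script was tested on simulated data: with 200 genes changed by 1 on the log2 scale among 22069, it recovered 193 with 9 false calls for U2OS day 2, 182 with 8 for U2OS day 3 and 147 with 8 for the day 3 line difference, all for CASP8AP2 siRNA. The members, the lists of further genes and the rules for naming them were chosen with earlier results of these data known. The 9 members are always named, and of the listed Notch genes and markers those paired with an identifier. The study's screen sheets pair 1924 of the 22069 identifiers (8.72%) with a symbol, among them 4 of the 9 members, and the other 5 names come from the list of members. Of the genes most like DLL4, 1 is not reported here. Promoters are RefSeq entries. Alternatives were the samples in the fit, the scaling, the prior variance, a filter on dim genes (mean log2 under 5), the replicate number as a block, and leaving out each array. They were followed for the members and the targeted genes only, and not for the listed Notch genes or the markers.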

Additional observations from a re-analysis of the deposited data

Results flagged for a closer look

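The results below differed between cell lines or between days in a test of the difference itself (limma, adjusted p under 0.05). For CASP8AP2 siRNA, DLL1 rose more in U2OS than in hTERT-RPE1 by 1.41 on day 2 and 1.83 on day 3. On day 3 the same held for JAG2 (0.82) and HEY1 (0.79). With NPAT siRNA the line differences were 2.11 for DLL1, 0.78 for JAG2 and 1.07 for HEY1. With HINFP siRNA they were 1.24 for DLL1, 0.80 for HES1 and 1.18 for HEY1. The CASP8AP2 effect was larger on day 2 than on day 1 for JAG1 in hTERT-RPE1 (0.45), and in U2OS for DLL1 (1.09), JAG1 (0.60) and HES1 (0.50). The 3 day 3 comparisons of a line share its 2 control arrays. No group had 4 or more arrays, so single arrays were not tested for standing apart.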

How the results depend on the processing

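No alternative turned the direction of a called result, and the DLL4 differences in U2OS stayed between 1.17 and 1.45 on day 2 and, for HINFP siRNA on day 3, between 1.83 and 2.57 when arrays were left out one at a time. Counts of called members (of 8) were more fragile. With only the groups compared in the fit they fell from 1 to 0 for U2OS day 1, from 1 to 0 for the day effect in hTERT-RPE1, from 2 to 0 for the hTERT-RPE1 controls over time, from 2 to 1, 2 to 0 and 3 to 0 for CASP8AP2, NPAT and HINFP siRNA in hTERT-RPE1 on day 3, from 5 to 3 for HINFP siRNA in U2OS, and from 3 to 1 (hTERT-RPE1 HINFP), 1 to 0 (U2OS NPAT) and 3 to 0 (U2OS HINFP) against CASP8AP2 siRNA. In that fit the U2OS controls over time went from 1 to 2. Centring each array on its median, which moved the median of all genes between the control lines to -0.12, -0.18 and -0.11 on days 1, 2 and 3, gave 5 in place of 8 for the control lines on day 2, 0 for the hTERT-RPE1 day effect, 3 for U2OS HINFP and 2 for the U2OS controls over time. Cyclic loess gave 1 for U2OS HINFP against CASP8AP2 and 2 for the U2OS controls over time. For the latter the trend and robust setting gave 2, and the filter on dim genes, which leaves DLL1 out there, gave 3. One fit of all 40 arrays gave 0 for the hTERT-RPE1 day effect.

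Leaving out 1 array gave ranges of 0 to 1 (U2OS day 1), 1 to 3 (hTERT-RPE1 day 2), 0 to 2 (hTERT-RPE1 NPAT), 1 to 2 (hTERT-RPE1 HINFP), 3 to 6 (U2OS NPAT), 2 to 5 (U2OS HINFP), 1 to 2 (line difference, day 2), 1 to 3 (line difference, NPAT), 0 to 1 (hTERT-RPE1 day effect), 1 to 2 for both control time courses, and 0 to 3 (hTERT-RPE1 HINFP), 0 to 1 (U2OS NPAT) and 1 to 3 (U2OS HINFP) against CASP8AP2 siRNA. On day 3 this leaves 1 array in a group, which is then assumed to vary like the others. The causes were not tested.

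Arrays with the same replicate number deviated from their group means with correlations of -0.102 to 0.0579 on days 1 and 2 and -0.0748 to 0.205 on day 3. Arrays with different numbers gave -0.0901 to 0.0937 on days 1 and 2, so no pairing by number was seen there. On day 3 the 2 arrays of a group deviate as mirror images, so these correlations cannot decide whether the numbers pair the cultures. With the replicate number as a block, the count went from 1 to 0 for the hTERT-RPE1 day effect and from 2 to 1 for the hTERT-RPE1 controls over time, and no other count moved by over 1.5 times. The block ended the calls of JAG1 for the hTERT-RPE1 day effect (adjusted p = 0.0853), HES1 for the U2OS day effect (0.0772), JAG2 for the hTERT-RPE1 controls over time (0.0509) and NOTCH2 for HINFP siRNA in U2OS (0.0516).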
